A study of Mus musculus with 8 samples.

Results

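Of the 47643 genes counted in whole mouse kidney, 60 are protein-coding genes with a chemokine or chemokine receptor symbol. They were found by name, as every protein-coding gene whose symbol is Ccl, Cxcl, Cx3cl or Xcl followed by a number for the 37 ligands, and Ccr, Cxcr, Cx3cr, Xcr or Ackr followed by a number for the 23 receptors. Cxcl11 is annotated as a polymorphic pseudogene in this reference and is therefore not one of the 60.

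Chemokines are small secreted proteins that direct the migration of leukocytes. Most are named for the spacing of their first cysteines (CC, CXC, CX3C and XC), and a cell follows a chemokine only if it carries a matching G-protein-coupled receptor. The atypical receptors, named Ackr, bind chemokines without the usual G-protein signal and clear or redistribute them. In the kidney, tubule epithelium, endothelium, fibroblasts and resident macrophages can all make chemokines, and CC and CXC ligands are among the best known products of injured tubules.

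The groups were 4 wild-type (WT) kidneys and 4 Six2-Cre;Cox10-fl/fl conditional knockout (cKO) kidneys, given as age 3 months except replicate 2 of each genotype, given as 2.5 months. The Cre is expressed under Six2, a gene of the nephron progenitors, which removes the floxed allele from the epithelium that descends from them, from podocyte to distal tubule, while the collecting duct, stroma, vessels and leukocytes have other origins. Cox10 is needed to assemble cytochrome c oxidase, the last complex of the respiratory chain. Whether the WT mice carried the Cre or a floxed allele, and whether each numbered sample is a separate mouse, is not given in the sources used here, so p-values measure the spread between these samples. RNA came from whole kidney, and fewer cells of a type cannot be told apart from less RNA per cell.

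Library totals ran from 9454830 to 15838026 counts. Values below are CPM, counts per 1000000 counts of a library after TMM scaling, and tests are edgeR quasi-likelihood tests adjusted by Benjamini-Hochberg over all 13829 tested genes. Cox10 itself had 24.6, 19.6, 19.2 and 20.4 CPM in WT 1 to 4 and 19.5, 10.9, 20.8 and 22.3 CPM in cKO 1 to 4, a log2 fold change of -0.19 with an adjusted p of 0.619. The count of a whole gene in a whole organ does not show the removed part alone. Reads of 4 Y-linked genes were counted in WT 2, 3 and 4 and in cKO 3, and there were 0 in WT 1 and cKO 1, 2 and 4. Counts of Xist, a transcript of female cells, ran the other way. They were 104 in WT 1 and 244, 330 and 101 in cKO 1, 2 and 4, against 0, 0 and 3 in WT 2, 3 and 4 and 0 in cKO 3. The labels give no sex, but both readouts split the libraries as sex would. Most WT libraries therefore differ from most cKO libraries in Y-linked reads and Xist as well as in genotype. The 9 proximal tubule, 6 loop and distal tubule and 5 podocyte markers were all tested and expressed. The summed proximal tubule markers were lower in cKO (3119 to 9542 CPM against 11189 to 15429 in WT), with 4 of the 9 called lower and 5 not called. The 6 injured-tubule markers, all called higher, summed to 10853 to 25085 CPM in cKO against 457 to 1965 in WT.

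Most chemokine ligands that could be tested were more abundant in cKO kidney. A gene was tested if at least 4 libraries reached 0.767 CPM (edgeR's filterByExpr), which kept 24 of the 37 ligands and 7 of the 23 receptors. Among the 24 ligands, 15 were called higher in cKO at an adjusted p under 0.05, 1 was called lower (Cxcl12) and 8 did not pass. Among the 7 receptors, 4 were called higher, among them Cx3cr1, Ccr1 and Ccr2, and 0 lower, with 0 lower also at an unadjusted p under 0.05 and by DESeq2 or limma-voom. Over all tested genes, 16.7% were called, 9.57% higher and 7.14% lower. The median log2 fold change of the tested ligands was 2.66 and that of the tested receptors 1.33, beside -0.01 over all tested genes. The filter bears on these counts and on the ligand median, since a gene low in WT is tested only if it is high in cKO. Of the 24 tested ligands, 9 reached the minimum in no WT library and so entered through cKO alone, and each of these was called higher. Of the 15 called higher, only Cxcl16, Ccl6 and Cxcl10 reached it in all 4 WT libraries. They were 3 of the 11 tested ligands that did so, among which Cxcl12 was called lower.

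A count that does not depend on the filter is the number of members whose 4 cKO libraries all lay above all 4 WT libraries. This held for 19 of the 34 ligands with at least 1 count and for 4 of the 21 such receptors, and 9.9% of all genes with a count did the same. The reverse held for 2 ligands, Cxcl12 and Ccl28, and 0 receptors, beside 6.8% of all genes with a count. Of the 29 members that were not tested, 5 had all cKO libraries above all WT libraries (Cxcl2, Cxcl3, Cxcl5, Ccl11 and Ackr4), beside 4.49% of the genes with a count that were not tested. Ccl21b, Ccl26, Ccl27b, Cxcr1 and Ccr1l1 had 0 counts in all libraries.

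**Figure D1:**
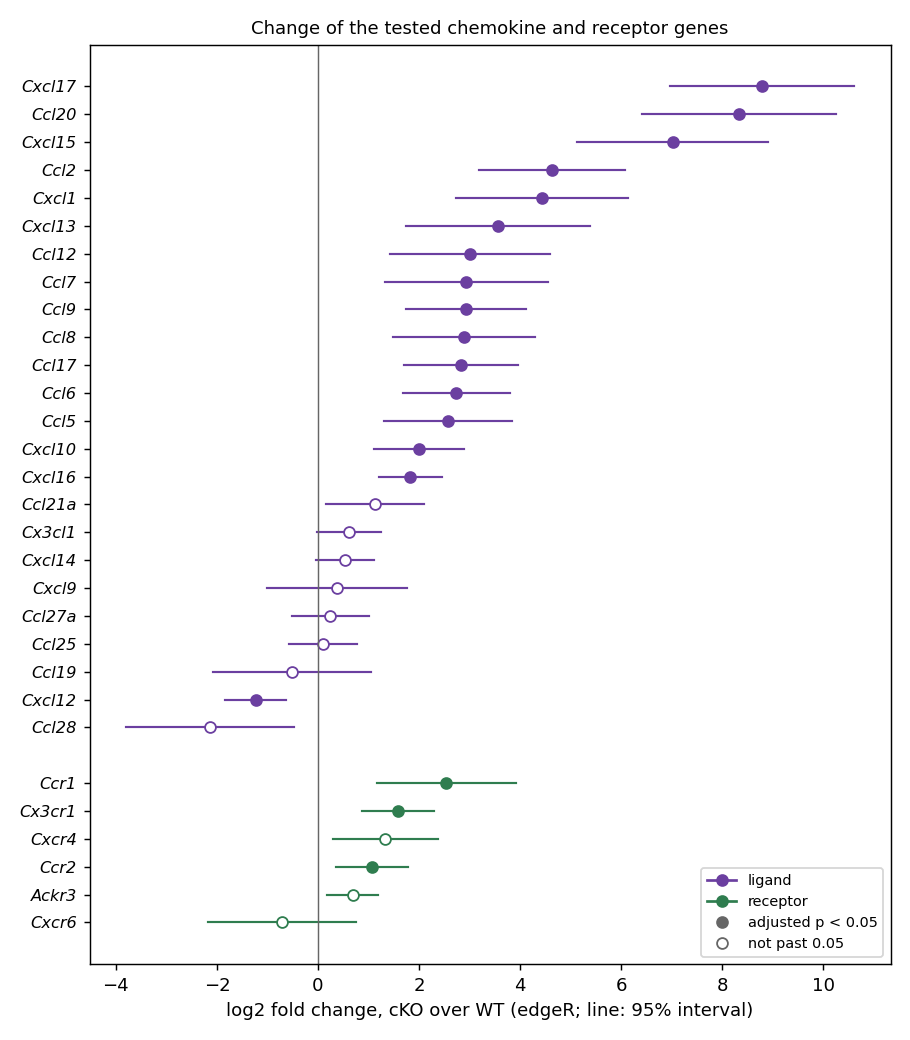
Fitted log2 fold change, cKO over WT, of the 24 ligands tested and of tested receptors, with 95% intervals as lines and filled points for an adjusted p under 0.05. All filled points but Cxcl12 lie to the right of 0, and the sizes of Cxcl17, Ccl20 and Cxcl15, which had 0 WT counts, depend on the fit's prior count.

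Promoter sequence is shown for the 4 called ligands whose window holds an NF-kB consensus match, since NF-kB is the transcription factor best known for driving inflammatory chemokines, and for Cxcl2 and Cxcl3, the neighbours of Cxcl1. Windows run from 250 bases before to 50 after a RefSeq start site (GRCm38.p6), and 46 of the 60 members had at least 1. Among the ligands called higher, Ccl2, Ccl5, Ccl7, Cxcl16 and Cxcl17 had no window and were not searched. In each stretch below, read 5′ to 3′ along the gene with 30 bases on either side, the capitals mark the match on either strand.
Cxcl1 (chr5:90891144-90891214, plus strand), Cxcl2 (chr5:90903772-90903842, plus strand) and Cxcl3 (chr5:90785998-90786068, plus strand) hold the same 11 letters, starting 71, 97 and 73 bases before the start site.
Cxcl1: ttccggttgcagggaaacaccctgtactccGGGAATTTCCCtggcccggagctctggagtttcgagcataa
Cxcl2: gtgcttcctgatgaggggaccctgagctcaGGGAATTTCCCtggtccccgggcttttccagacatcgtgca
Cxcl3: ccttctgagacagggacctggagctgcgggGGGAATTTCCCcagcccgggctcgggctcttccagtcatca
Ccl20 (chr1:83116656-83116725, plus strand) and Ccl9 (chr11:83578632-83578701, minus strand) hold other forms of the consensus, starting 80 and 35 bases before the start site.
Ccl20: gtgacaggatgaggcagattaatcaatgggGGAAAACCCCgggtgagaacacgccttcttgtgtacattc
Ccl9: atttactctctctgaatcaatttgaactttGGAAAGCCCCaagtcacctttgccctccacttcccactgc
Cxcl10 (chr5:92348953-92349132, minus strand) holds 3 runs: a reverse match to the core of the interferon-stimulated response element (TTTC, any 2 letters, TTTC) at 213 bases before the start site, and NF-kB matches at 159 and, overlapping each other, at 104 and 103.
Cxcl10: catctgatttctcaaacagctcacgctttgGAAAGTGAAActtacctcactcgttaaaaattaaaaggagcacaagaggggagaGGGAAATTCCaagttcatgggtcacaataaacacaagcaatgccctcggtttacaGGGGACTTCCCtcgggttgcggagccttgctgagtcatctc
The NF-kB consensus occurred in 8.459% of all 32851 mouse promoter windows, in 4 of the 10 windows of ligands called higher, in 4 of 23 windows of other ligands (Cxcl2, Cxcl3, Ccl1 and Ccl27a) and in 4 of 20 receptor windows. The interferon element occurred in 3.443% of all windows and in 1 of the 10, that of Cxcl10, in 2 of the 23 and in 0 of the 20. The AP-1 letters TGANTCA occurred in 7.808% of all windows, in 2 of the 10, in 5 of the 23 and in 3 of the 20, and TATAAA in 13.62% of all windows, in 5 of the 10, in 5 of the 23 and in 5 of the 20. These matches are letters in a window and say nothing of binding.

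The CXC ligands that attract neutrophils were at or near 0 in WT and were read in every cKO library. Cxcl1, a classical neutrophil attractant, had 0, 0.459, 0.735 and 0.259 CPM in WT 1 to 4 and 4.15, 19.4, 3.98 and 4.57 CPM in cKO 1 to 4, a log2 fold change of 4.43 (SE 0.78, adjusted p = 0.0036). Every cKO library was above every WT library, and cKO 2 stood far above the other cKO libraries. The log2 fold change was 3.53 without cKO 2 and 5.06 without WT 3. Cxcl15, best known from lung epithelium, had 0 counts in every WT library and 23, 11, 17 and 18 counts in cKO 1 to 4, at least 20.1-fold higher against a floor of 3 counts over the WT group (adjusted p = 0.0012). Its 4 cKO libraries were close together, at 1.25 ± 0.106 CPM (mean ± SD, n = 4).
Cxcl5, Cxcl2 and Cxcl3, their neighbours on the chromosome, were too low for the test. Cxcl5 had 0 WT counts and 16, 19, 36 and 10 counts in cKO 1 to 4, at least 23.6-fold higher. Cxcl2 had 0, 0, 1 and 0 counts in WT and 24, 30, 14 and 8 in cKO, a ratio of 66.4 with a 95% counting interval of 11.6 to 2657. Cxcl3 had 0 WT counts and 2, 2, 2 and 3 counts in cKO, 2.62-fold above the same WT floor, a value that leaves out the counting error of these few cKO counts. When the count filter was dropped, a fit that called 6.32% of genes higher, Cxcl5 and Cxcl2 passed (adjusted p = 0.000351 and 0.000624) and Cxcl3 did not (0.062).

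Reads of their receptors stayed at or near 0. Cxcr2, which binds Cxcl1, Cxcl2, Cxcl3 and Cxcl5 on neutrophils, had 0 counts in each WT library and 2, 0, 2 and 0 in cKO 1 to 4, and Cxcr1 had 0 counts throughout. None of the 9 neutrophil markers reached the test: their summed level was 0.326 to 2.63 CPM in cKO and 0.453 to 2.16 CPM in WT, and Mpo, Camp and Ngp had 0 counts in all 8 libraries. At this depth a floor of 3 counts over the WT group corresponds to 0.0625 CPM.

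The monocyte-attracting CC ligands Ccl2, Ccl7, Ccl8 and Ccl12 were all called higher. Ccl2, the principal ligand of Ccr2 and the classical monocyte attractant, had 0.776, 0.230, 0.327 and 0 CPM in WT 1 to 4 and 4.88, 13.1, 5.90 and 9.14 CPM in cKO 1 to 4, a 24.8-fold ratio of means and a log2 fold change of 4.63 (SE 0.66, adjusted p = 0.00114). The groups were far apart, from at most 0.776 CPM in WT to at least 4.88 CPM in cKO. Ccl7 had 0.173, 0.804, 0.0816 and 0.0647 CPM in WT and 1.46, 3.70, 1.92 and 0.849 CPM in cKO (log2 fold change 2.93, adjusted p = 0.0206), with the highest WT value just under the lowest cKO value. Ccl12, a mouse ligand of Ccr2, had 0.431, 0.459, 0 and 0.0647 CPM in WT and 1.34, 1.41, 3.27 and 1.24 CPM in cKO (log2 fold change 3.01, adjusted p = 0.0169). Ccl8, which in mouse acts on Ccr8, had 0.259, 2.07, 0.327 and 0.259 CPM in WT and 3.05, 7.51, 5.69 and 3.98 CPM in cKO (log2 fold change 2.89, adjusted p = 0.0121). All 3 had separate groups. Without WT 1 the log2 fold change of Ccl2 was 5.51, and without WT 2 those of Ccl7 and Ccl8 were both 4.11. The call of Ccl7 was lost without WT 3, WT 4 or cKO 2, and that of Ccl12 without WT 4 or cKO 3.

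Ccr2, carried by inflammatory monocytes, was called higher with a smaller fitted change than its ligands. It had 3.62, 5.63, 4.74 and 2.59 CPM in WT 1 to 4 and 10.6, 5.55, 11.2 and 7.11 CPM in cKO 1 to 4, a log2 fold change of 1.07 (SE 0.32, adjusted p = 0.0436). The groups overlapped, since cKO 2, the library with the most Ccl2, lay just below WT 2. The call was lost when any 1 of WT 1, WT 3, WT 4, cKO 1, cKO 3 or cKO 4 was left out. Ccr8 had 1 count in all, in cKO 1.

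Ligands of Ccr1 form a further set. Ccl6 and Ccl9 are made by macrophages and other myeloid cells and bind Ccr1. Ccl6 had 7.16, 1.95, 1.96 and 2.00 CPM in WT and 12.8, 36.9, 18.9 and 19.3 CPM in cKO, a log2 fold change of 2.74 (SE 0.48, adjusted p = 0.00374), and Ccl9 had 4.74, 1.49, 1.63 and 0.582 CPM in WT and 11.9, 27.6, 11.5 and 13.3 CPM in cKO, a log2 fold change of 2.93 (SE 0.54, adjusted p = 0.00477). Both were highest among WT libraries in WT 1, and both were highest of all in cKO 2. Without WT 1 their log2 fold changes were 3.46 and 3.72. Ccl5, a ligand of Ccr1 made by T cells, NK cells and tubule epithelium, had 1.29, 0, 0.898 and 0.905 CPM in WT and 6.96, 3.05, 4.48 and 4.77 CPM in cKO (log2 fold change 2.58, adjusted p = 0.0125), and here cKO 2 was the lowest of the cKO libraries. Ccl3 and Ccl4, CC ligands of the same gene cluster, did not reach the filter, and their groups overlapped, with at most 4 counts of Ccl3 and 12 of Ccl4 in a library.

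Ccr1 itself had 2.93, 0.804, 0.408 and 0.259 CPM in WT 1 to 4 and 5.43, 10.4, 4.91 and 4.83 CPM in cKO 1 to 4, a log2 fold change of 2.54 (SE 0.63, adjusted p = 0.0196). It repeated the order of Ccl6 and Ccl9 at both ends, with WT 1 the highest WT library and cKO 2 the highest cKO library. It lost its call without WT 3 or without cKO 2, and without WT 1 its log2 fold change was 3.75. Of the 12 macrophage and monocyte markers tested, 10 were called higher and 1 (Mertk) lower (median log2 fold change 2.40), and the list summed to 154 to 263 CPM in WT and 486 to 843 CPM in cKO. Ly6c2, the marker of inflammatory monocytes in the list, did not reach the filter and went the other way, with 4.74, 1.03, 0.816 and 0.582 CPM in WT 1 to 4 and 0.122, 0.435, 0.498 and 0.131 CPM in cKO 1 to 4, all cKO libraries below all WT libraries. WT 1 was the highest WT library and cKO 2 the highest cKO library in the list's sum too, but most of the cKO 2 sum was Lyz2 (532 CPM). Of the 10 markers called higher, Lyz2, Mrc1 and Itgam were highest among cKO libraries in cKO 2, and Cd68 and Cd14 in cKO 4. C1qa, C1qb, C1qc, Adgre1 and Fcgr1 were highest in cKO 3. The part of these cells in the ligands and receptors was not tested.

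Ccl11 attracts eosinophils through Ccr3. It had 5, 2, 1 and 4 counts in WT 1 to 4 and 20, 6, 17 and 15 counts in cKO 1 to 4, with every cKO library above every WT library, and it passed only when the filter was dropped (adjusted p = 0.0433). Ccr3 had 1 count in all, in cKO 4, and the 7 eosinophil, mast cell and basophil markers summed to under 1 CPM in each library. Ccl24, which also acts on Ccr3, had 2, 4, 0 and 1 counts in WT and 3, 2, 1 and 0 in cKO.

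**Figure D2:**
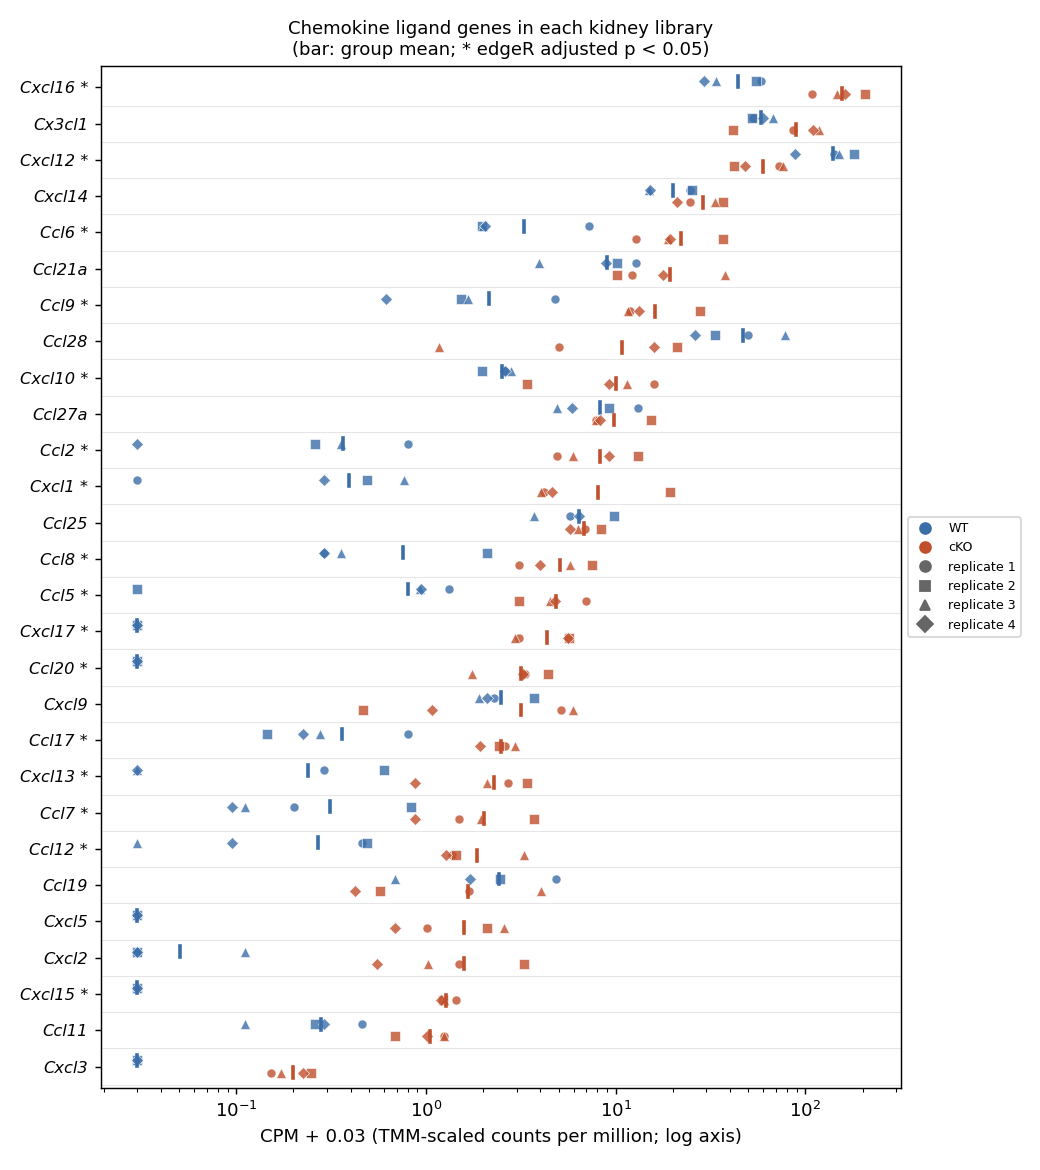
CPM plus 0.03 on a log axis in each of the 8 libraries for the 28 ligands that were tested or whose groups did not overlap, with WT in blue, cKO in red, the replicate as the marker shape and the group mean as a bar. Points at the far left are counts of 0. From Ccl2 downward most WT points lie under 1 CPM, while Cxcl12 and Ccl28 are the 2 ligands with all WT points to the right.

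Among the ligands of epithelia and mucosa, Ccl20 and Cxcl17 were read in cKO kidney alone, Cxcl16 rose, and Ccl28 was lower in every cKO library without passing the test. Ccl20 (chr1:83116766-83119167, mm10), which draws Ccr6-bearing dendritic cells and lymphocytes to epithelium, had 0 counts in all 4 WT libraries and 54, 40, 24 and 49 counts in cKO 1 to 4, at least 48.6-fold higher (adjusted p = 0.000639). Cxcl17 (chr7:25400053-25412886), a chemokine of mucosal epithelium, also had 0 WT counts and 50, 52, 41 and 85 counts in cKO 1 to 4, at least 66.4-fold higher (adjusted p = 0.000403). These 2 genes kept their call in all 20 alternative fits, the only called members to do so. Ccr6, the receptor of Ccl20, had 0, 0, 1 and 1 counts in WT and 0 in each cKO library.
Beside them, 5 of the 6 urothelium markers were called higher (summed level 12.2 to 59.0 CPM in WT and 87.5 to 158 CPM in cKO), as were 3 of the 6 collecting duct markers tested, with 1 lower. Their part in the Ccl20 and Cxcl17 reads was not tested.

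Ccl28 (chr13:119623819-119654359), made by mucosal and glandular epithelium and bound by Ccr10, had 46.9 ± 23.0 CPM in WT and 10.8 ± 9.29 CPM in cKO (mean ± SD, n = 4). By library it had 49.8, 33.5, 78.1 and 26.3 CPM in WT 1 to 4 and 5.005, 21.1, 1.14 and 15.9 CPM in cKO 1 to 4, so that all cKO libraries lay below all WT libraries. Its log2 fold change of -2.14 (95% interval -3.80 to -0.47) did not pass, with an adjusted p of 0.0797. The spread was wide in cKO, where cKO 3 held 1.14 CPM and cKO 2 21.1 CPM. It passed by limma-voom and when cKO 3 was left out. Ccr10 had 2, 0, 1 and 3 counts in WT and 1, 0, 2 and 0 in cKO, and Ccl27a, its other ligand, had 8.25 ± 3.73 CPM in WT and 9.79 ± 3.63 CPM in cKO (mean ± SD, n = 4, adjusted p = 0.661).

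Cxcl16 (chr11:70453983-70459984) is made as a membrane protein that holds Cxcr6-bearing T cells and is also shed as a soluble chemokine. It had 58.1, 54.5, 33.8 and 29.2 CPM in WT 1 to 4 and 109, 206, 147 and 162 CPM in cKO 1 to 4, a 3.55-fold ratio of means and a log2 fold change of 1.83 (SE 0.29, adjusted p = 0.00192). Both genotypes had many reads of it, and the lowest cKO library lay well above the highest WT library. Its receptor Cxcr6 did not pass, at 1.64, 1.38, 0.816 and 0.517 CPM in WT and 1.10, 0, 0.925 and 0.457 CPM in cKO (log2 fold change -0.70, 95% interval -2.17 to 0.76, adjusted p = 0.492).

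Cxcl14, an epithelial chemokine, had 24.7, 25.1, 15.02 and 15.2 CPM in WT and 24.7, 36.9, 33.3 and 21.0 CPM in cKO, overlapping ranges with a log2 fold change of 0.53 (95% interval -0.04 to 1.10, adjusted p = 0.176). Ccl25, known from gut and thymus, was at 6.37 ± 2.53 and 6.80 ± 1.14 CPM (adjusted p = 0.844), and its receptor Ccr9 had at most 5 counts in any library.

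The membrane chemokine Cx3cl1, also called fractalkine, and its receptor gave different results. Cx3cl1 had 53.1, 52.5, 67.7 and 59.4 CPM in WT 1 to 4 and 85.7, 41.2, 119 and 110.1 CPM in cKO 1 to 4, a log2 fold change of 0.61 (95% interval -0.03 to 1.25, adjusted p = 0.166). The libraries cKO 1, 3 and 4 were above all WT libraries and cKO 2 was below all of them, and Cx3cl1 passed the test when cKO 2 was left out. Cx3cr1, the receptor that marks resident kidney macrophages and dendritic cells, had 7.33, 3.79, 3.27 and 3.62 CPM in WT and 14.3, 9.47, 19.0 and 11.4 CPM in cKO, a log2 fold change of 1.59 (SE 0.33, adjusted p = 0.00814). Its groups did not overlap, and WT 1 stood above the other WT libraries as it did for Ccr1 and Ccl6.

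Cxcl12 (chr6:117168535-117181367, mm10) was the 1 member called lower. It signals through Cxcr4, is cleared by Ackr3, and in the adult kidney is made by stromal, vascular and tubule cells. Its level was 141, 179.9, 151 and 87.7 CPM in WT 1 to 4 and 72.4, 41.9, 75.9 and 48.1 CPM in cKO 1 to 4, with no overlap, means 2.35-fold apart and a log2 fold change of -1.23 (SE 0.28, adjusted p = 0.0124). The call was lost without cKO 4 and without the 2.5-month pair. Meanwhile both of its receptors had higher means in cKO without passing the test. Ackr3 had 42.2, 35.9, 34.7 and 23.7 CPM in WT and 66.3, 59.3, 52.7 and 41.0 CPM in cKO (log2 fold change 0.68, adjusted p = 0.0624), where only cKO 4 fell within the WT range. Cxcr4 had 3.80, 6.43, 1.47 and 2.78 CPM in WT and 6.41, 17.2, 7.04 and 5.68 CPM in cKO (log2 fold change 1.33, adjusted p = 0.0747), with cKO 2 far above the others. Both passed by DESeq2. An exact two-sided permutation test over the 70 ways to split the libraries gave p = 0.0286 for Cxcl12, the smallest it can give, 0.0571 for Ackr3 and 0.0857 for Cxcr4.
Of the 7 blood endothelium markers, 3 were called lower (Kdr, Ehd3 and Tek), and the list summed to 274 to 407 CPM in WT and 179 to 306 CPM in cKO. Of the 7 fibroblast markers, 6 were called higher and 1 (Pdgfra) lower. The part of these cell types in the Cxcl12 result was not tested.

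**Figure D3:**
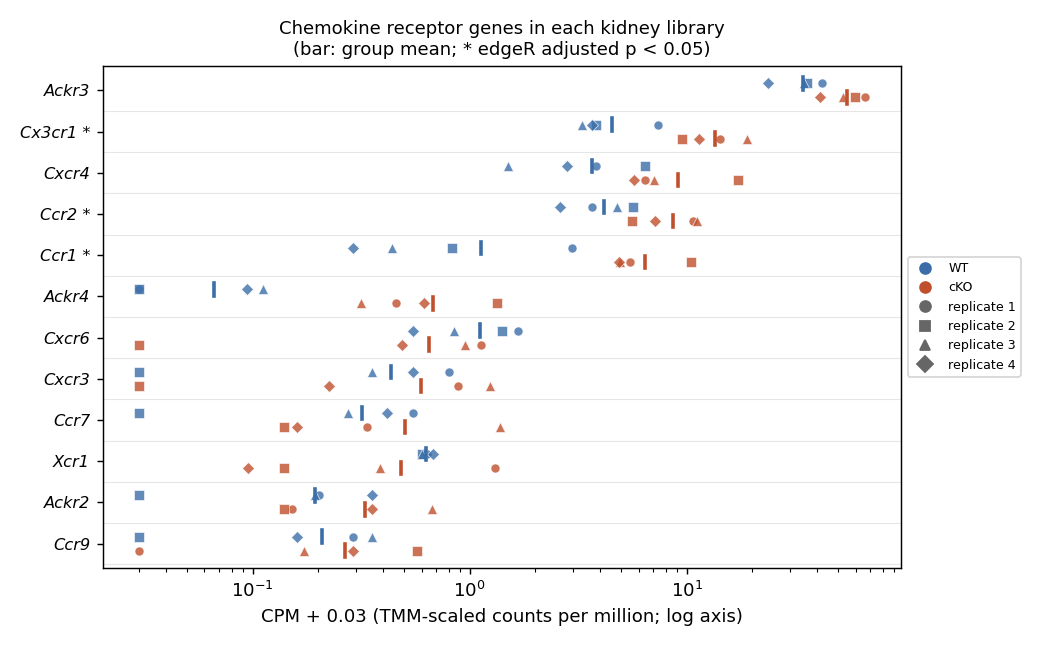
CPM plus 0.03 on a log axis in each library for receptors with at least 15 counts in all, drawn as for the ligands. Cx3cr1 and Ccr1 show separate groups, Ackr4 does so at a few counts, and Ackr3, Cxcr4, Ccr2 and Cxcr6 overlap.

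Cxcl13, a chemokine that organises lymphoid tissue, was called higher, and so was Ccl17. Cxcl13, which draws B cells and follicular T cells through Cxcr5, had 0.259, 0.574, 0 and 0 CPM in WT and 2.69, 3.37, 2.06 and 0.849 CPM in cKO, a log2 fold change of 3.57 (SE 0.83, adjusted p = 0.0147). Its groups did not overlap, and the lowest cKO value was in cKO 4. Without WT 2 its log2 fold change was 4.67. Cxcr5 had 1, 0, 2 and 3 counts in WT and 0, 0, 0 and 1 in cKO, and the 7 B and plasma cell markers summed to 5.51 to 41.5 CPM in WT and 3.98 to 37.4 CPM in cKO, in overlapping ranges. Ccl17, a dendritic cell product that acts on Ccr4, had 0.776, 0.115, 0.245 and 0.194 CPM in WT and 2.56, 2.39, 2.92 and 1.89 CPM in cKO, a log2 fold change of 2.83 (SE 0.51, adjusted p = 0.00425), with the cKO libraries close together, and one of 3.61 without WT 1. Ccl22, the other Ccr4 ligand, ranged from 0 to 14 counts in WT and from 0 to 29 in cKO, and Ccr4 had at most 3 counts in a library.

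The Ccr7 ligands guide dendritic cells and naive T cells along lymphatic vessels. Ccl19 had 4.83, 2.41, 0.653 and 1.68 CPM in WT and 1.65, 0.544, 3.98 and 0.392 CPM in cKO (adjusted p = 0.648), and Ccl21a had 12.8, 10.1, 3.92 and 8.86 CPM in WT and 12.2, 10.1, 37.5 and 17.8 CPM in cKO (adjusted p = 0.101). Both overlapped, and Ccl21a is uncertain because near-identical gene copies could share its reads, although Ccl21b, the copy among the members, had 0 counts. Ccr7 had 6, 0, 3 and 6 counts in WT and 5, 1, 19 and 2 in cKO. Ackr4, which clears Ccl19, Ccl21 and Ccl25, had 0, 0, 1 and 1 counts in WT and 7, 12, 4 and 9 in cKO, a ratio of 14.0 with a counting interval of 3.57 to 120.4. It was the 1 untested receptor whose groups did not overlap, and it passed when the filter was dropped (adjusted p = 0.0165). The other atypical receptors, Ackr1 and Ackr2, had at most 3 and 9 counts in a library, and the ligand Ccl1 had 1 count in each of cKO 1 and cKO 3.

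Of the interferon-induced CXC ligands that attract T cells through Cxcr3, Cxcl10 rose and Cxcl9 did not pass. Cxcl10 had 2.59, 1.95, 2.78 and 2.59 CPM in WT and 15.9, 3.37, 11.4 and 9.20 CPM in cKO, a log2 fold change of 2.01 (SE 0.41, adjusted p = 0.0079). WT libraries were within 1 CPM of each other, and cKO 2 was the lowest cKO library. Cxcl9, its neighbour on chromosome 5, had 2.24, 3.67, 1.88 and 2.07 CPM in WT and 5.13, 0.435, 5.90 and 1.04 CPM in cKO (adjusted p = 0.712), with cKO 1 and cKO 3 above all WT libraries and cKO 2 and cKO 4 below them. Cxcr3 had 9, 0, 4 and 8 counts in WT and 14, 0, 17 and 3 in cKO. Xcl1 and Xcr1, a pair linking T or NK cells to dendritic cells, had at most 4 and 21 counts in a library. Of the 7 T and NK cell markers tested, 1 (Lck) was called higher, and the list summed to 7.92 to 15.8 CPM in WT and 11.5 to 24.7 CPM in cKO. That sum was highest in cKO 3 and cKO 1, the libraries with the most Cxcl9, Cxcl10 and Cx3cr1, and its part in those values was not tested.

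Levels can be compared between genes only per length of exon. In WT the ligands summed to 116, 105, 86.7 and 71.1 CPM per kb, and in cKO to 163, 229, 230.3 and 190.1 CPM per kb, so every cKO library exceeded every WT library. By this scale Cxcl12 had the highest mean of the ligands in WT kidney at 17.1 ± 4.71 CPM per kb (mean ± SD, n = 4), followed by Cx3cl1 at 14.8 ± 1.80 and Cxcl16 at 14.5 ± 4.80, whose spreads overlap. Cxcl12 was the highest ligand in WT 2 and WT 3, Cxcl16 in WT 1 and Cx3cl1 in WT 4. In all 4 cKO libraries the highest ligand was Cxcl16, at 51.7 ± 13.3 CPM per kb, above Cx3cl1 at 22.6 ± 8.83 and Ccl21a at 22.3 ± 14.4 in means. Cxcl12 made up 18.1% ± 3.54 of the ligand sum in WT and 3.70% ± 1.36 in cKO. The share of Ccl28 was 10.4% ± 5.53 and 1.09% ± 0.866, and that of Cxcl16 15.1% ± 2.13 and 25.3% ± 4.35. The receptors summed to 15.7 ± 3.81 CPM per kb in WT and 29.9 ± 5.73 in cKO. Ackr3, an atypical receptor, was the leading receptor in both, with 65.3% ± 5.47 and 55.0% ± 4.72 of the receptor sum. These sums and shares are descriptions and were given no test.

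**Figure D4:**
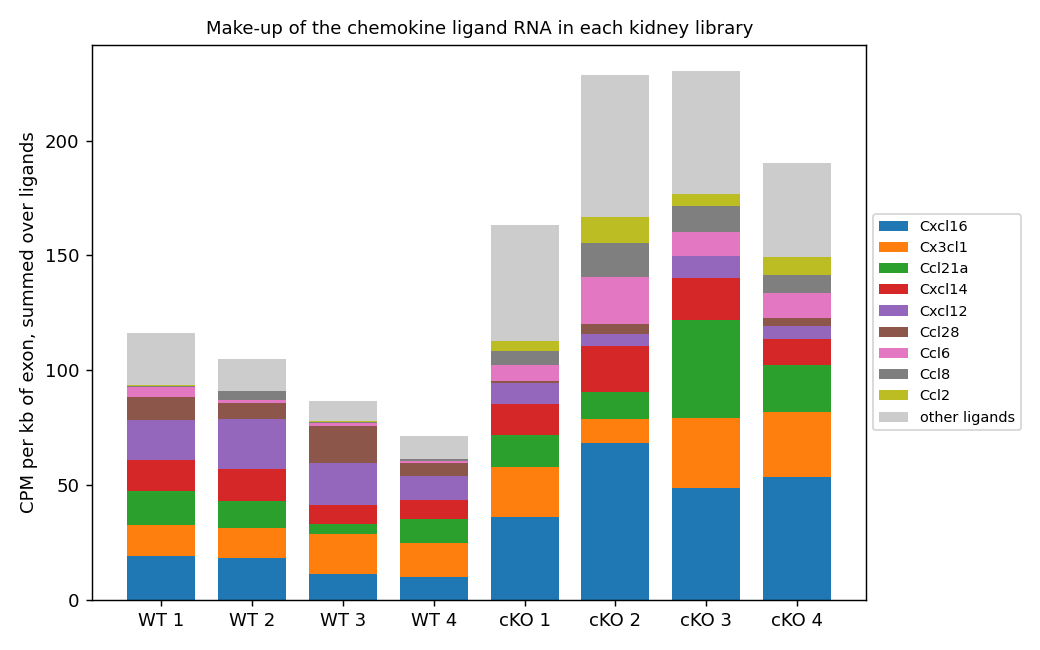
Summed CPM per kb of exon of all 37 ligands in each library, stacked by gene, with the smaller ligands in grey. Bars reach 71.1 to 116 in WT and 163 to 230.3 in cKO, the Cxcl12 and Ccl28 segments are thinner in every cKO bar, and the Cxcl16 segment is thicker.

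The cKO libraries did not share 1 ligand profile. Among the 24 tested ligands, cKO 2 was the highest cKO library for 14, cKO 3 for 7, cKO 1 for 3 and cKO 4 for 0, where cKO 2 was the highest for 33.66% of all tested genes and cKO 4 for 26.12%. Cxcl1, Cxcl16, Ccl2, Ccl6, Ccl7, Ccl8, Ccl9, Cxcl13, Ccl20 and Cxcl17 peaked in cKO 2. Cxcl10, Ccl5 and Cxcl15 peaked in cKO 1, and Ccl17 and Ccl12 in cKO 3. The library cKO 2 is from the 2.5-month pair and has the lowest total count. It also had the highest injured-tubule sum (25085 CPM, against 13122, 10853 and 21614 in cKO 1, 3 and 4), most of it from Spp1 (23464 CPM in cKO 2), and the lowest proximal tubule sum (3119 CPM, against 9542, 8032 and 5204). Of the other injured-tubule markers, Lcn2 and Krt20 were highest in cKO 4 (1049 and 29.8 CPM, against 598 and 23.6 CPM in cKO 2). The part of these in the profile of cKO 2 was not tested.

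Position on the chromosome was not used to choose the genes. Members within 500 kb of each other were joined. Then 3 ligand clusters, with 6, 5 and 5 of the 37 ligands, held 9 of the 15 ligands called higher. Of these, Ccl2, Ccl7, Ccl12, Cxcl1 and Cxcl15 reached the filter's minimum in no WT library. They were tested only because they were high in cKO, so the shares of tested members called below are partly set by the filter. Over all tested genes 9.57% were called higher, and 9.9% of genes with a count had every cKO library above every WT library. The chromosome 11 cluster of Ccl2, Ccl7, Ccl11, Ccl12, Ccl8 and Ccl1 (chr11:82035571-82305690, mm10) had 4 tested members, all called higher, and Ccl11 was also above WT in every library. Farther along, Ccl5, Ccl9, Ccl6, Ccl3 and Ccl4 (chr11:83525778-83664683) had 3 tested members, all higher, while Ccl3 and Ccl4 overlapped between groups. On chromosome 5, Cxcl5, Cxcl3, Cxcl15, Cxcl1 and Cxcl2 (chr5:90759360-90905938) had 2 tested members, both higher, and all 5 had every cKO library above every WT library. Other clusters were mixed: Ccl22, Cx3cl1 and Ccl17 lie within 66.4 kb on chromosome 8, and only Ccl17 was called, and the chromosome 4 cluster with Ccl27a, Ccl19 and Ccl21a had 3 tested members and 0 calls by edgeR, DESeq2 or limma-voom, with Ccl21a at an unadjusted p under 0.05.

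Because Y-linked reads and genotype partly coincide, each called member was also compared within libraries with such reads (WT 2, 3 and 4 against cKO 3) and within those without (WT 1 against cKO 1, 2 and 4). All 19 members called higher had positive log2 fold changes in both, and Cxcl12 was negative in both, at -0.88 and -1.38. For a member whose groups did not overlap, the split could not change the sign. Such members include Cxcl12, every ligand called higher, Cx3cr1 and Ccr1, so their signs are no check on Y-linked reads. The sizes differed for several. Cx3cr1 was 2.41 with and 0.68 without Y-linked reads, Ccr1 3.39 and 1.22, and Ccl17 3.87 and 1.54. The difference between the 2 contrasts had an unadjusted p under 0.05 for 7 tested members and passed adjustment for 0, the lowest adjusted p being 0.797. In each contrast 1 arm is a single library, whose spread was taken to be that of the others. With a term for Y-linked reads in the fit, 14 of the 15 ligands and 2 of the 4 receptors kept their higher call, where 5.17% of all genes were called higher and 1.63% lower. Ccl7, Ccr2 and Cxcl12 were among those that lost it, with adjusted p of 0.0592, 0.0651 and 0.0502.

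**Figure D5:**
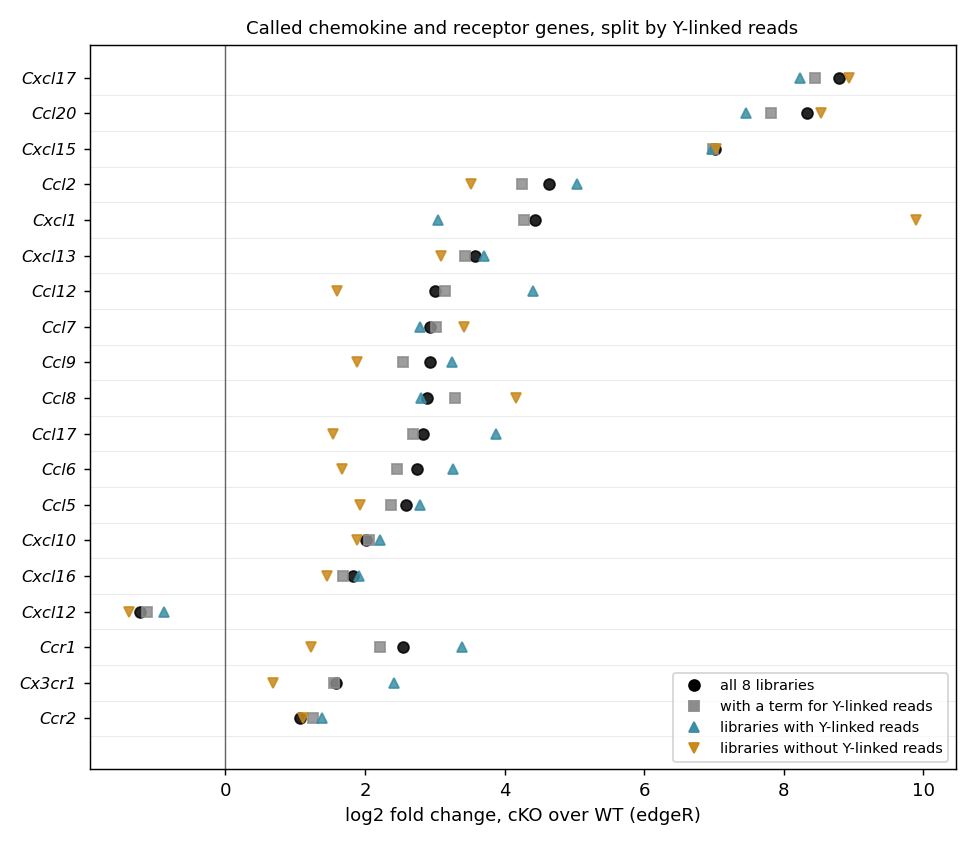
Fitted log2 fold change of called members in all 8 libraries (black), with a term for Y-linked reads (grey), and within libraries with (blue) and without (gold) such reads. Each member drawn keeps its side of 0 in all 4, which the split could not change where its groups did not overlap. The values of Cxcl17, Ccl20 and Cxcl15, and the gold value of Cxcl1, rest on WT counts of 0.

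Genes around the chemokine system were counted from lists. Of 3 tested chemokine-like ligands, 1 rose: Pf4, platelet factor 4, a CXC chemokine with another name, went from 0.465 ± 0.206 to 2.15 ± 0.986 CPM (mean ± SD, n = 4, log2 fold change 2.17, adjusted p = 0.011), and the list's median was 0.75. Of 4 tested receptor-like genes, 1 rose: C5ar1, the receptor of complement fragment C5a on myeloid cells, with a log2 fold change of 2.97 (adjusted p = 0.00663, list median 0.25). In the list of 39 tested signalling genes downstream of the receptors, 11 rose and 2 fell, with a median log2 fold change of 0.54. Rgs16 and Rgs19, which shorten G-protein signals, had log2 fold changes of 3.72 (adjusted p = 0.000824) and 1.85 (adjusted p = 0.00136). Rgs10, of the same family, had one of 1.83 (adjusted p = 0.00755) and the myeloid kinase Fgr one of 2.25 (adjusted p = 0.00507).

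Of 8 tested genes for the cleavage of chemokines, 3 rose and 2 fell (median log2 fold change 0.20). Mmp2 and Mmp14, matrix metalloproteinases, rose by 2.99 and 2.56 on the log2 scale (adjusted p = 0.000824 and 0.000883), and Cpm, a carboxypeptidase, had 26.6 ± 4.50 CPM in WT and 9.07 ± 1.27 CPM in cKO (adjusted p = 0.000952). Of 20 genes for the proteoglycans and heparan sulfate that hold chemokines on cell surfaces, 7 rose and 3 fell (median 0.18). Sdc1, a cell-surface proteoglycan of epithelium, went from 16.4 ± 4.31 to 67.6 ± 14.3 CPM (log2 fold change 2.05, adjusted p = 0.0005), and Gpc3 from 9.36 ± 2.32 to 52.2 ± 22.5 CPM (log2 fold change 2.47, adjusted p = 0.000824). Bgn, a matrix proteoglycan of stroma, had a log2 fold change of 1.54 (adjusted p = 0.00823). These lists hold both directions, and their calls are to be read against the 9.57% higher and 7.14% lower among all tested genes.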

How the data were processed

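The 8 kidney libraries were made from polyadenylated RNA with a stranded kit, per the labels' protocols. The authors deposited RSEM expected counts per gene, not scaled, 1 file per library; STAR, RSEM and the build mm10 are named in the submitters' processing notes, while the sources used here do not give versions, annotation or strand setting. Of the 47643 genes, 47224 were matched to GENCODE. Expected counts were rounded, filtered with filterByExpr and scaled by TMM to counts per 1000000 (CPM). Genotypes were compared with edgeR 4.0.16 (robust quasi-likelihood, R 4.3.3), with Benjamini-Hochberg adjustment over 13829 genes and a threshold of 0.05. Depth was 9454830 to 15838026 counts, and intervals on ratios and floors cover counting error only. Exon length is the union of a gene's annotated exons. The exact permutation test used log2 of CPM plus 0.5. Alternatives were other scalings and filters, DESeq2 1.42.0, limma-voom (limma 3.58.1), left-out libraries, a replicate block and terms for Y-linked reads; without TMM factors the median log2 fold change over all genes went from -0.01 to 0.15. The members and lists were chosen with earlier results of these data known. Per-library values are given for each called member and its known receptor or ligand, and of other lists up to 4 called genes with the smallest adjusted p are named. 1 receptor counted in the totals is not reported here.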

Additional observations from a re-analysis of the deposited data

Results flagged for a closer look

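In 11 of 62 groups of 4 libraries tested, the highest library stood apart from the other 3 of its genotype by more than Dixon's 95% limit. Chance passes that limit in about 1 in 20 groups only where values are normally distributed. Here the values were CPM without a log, some from few counts, such as 2, 7, 1 and 1 of Ccl7 in WT 1 to 4. The groups also share the same libraries. The number of flags therefore cannot be set against 1 in 20, and the flags are a description. Of the 11 flags, 5 were in cKO 2: Ccl27a at 15.2 CPM, Ccl9 at 27.6 CPM, Cxcl1 at 19.4 CPM, Cxcr4 at 17.2 CPM and Ccr1 at 10.4 CPM. Another 2 were in WT 1, where Ccl6 stood at 7.16 CPM and Cx3cr1 at 7.33 CPM. In WT 2, Ccl8 reached 2.07 CPM and Ccl7 0.804 CPM. Ccl12 stood apart in cKO 3 at 3.27 CPM, and Cxcl15 in cKO 1 at 1.40 CPM. All 11 were high values rather than low ones, and whether this holds on a log scale was not tested.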

How the results depend on the processing

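No called member changed sign in any alternative. Where groups did not overlap, leaving out or splitting libraries could hardly change the sign. With each library left out in turn, 14 of the 20 kept their call. The other 6 lost it in at least 1 fit, among them Ccl7, Ccl12, Cxcl12, Ccr1 and Ccr2. Leaving out 1 replicate gave 14 to 18 ligands higher, 0 to 2 ligands lower and 2 to 5 receptors higher. Ligands higher fell from 15 to 2 within the libraries without Y-linked reads, a contrast with 1 WT library. Ligands lower, 1 in the main result, were 2 by limma-voom and 0 with a term for Y-linked reads, without the 2.5-month pair, at an adjusted p under 0.01, and in the contrast of libraries that lack Y-linked reads. Receptors higher, 4 in the main result, were 6 by library size scaling and 6 by DESeq2, 2 with a term for Y-linked reads, 2 within the libraries with such reads, 0 within those without, 0 without WT 4 and cKO 4, and 1 at an adjusted p under 0.01. Some of these fits had fewer samples or a stricter threshold, and the cause of the changes was not tested. Receptors lower were 0 in all alternatives. With a replicate block, 15 ligands were higher, 1 lower and 5 receptors higher, and Ccr2 lost its call; the deviations of same-numbered libraries correlated at -0.08 to 0.28, so the numbers were not taken to pair them. Depth limits the untested members, of which 20 had under 10 counts in every library.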
